A study of Mus musculus with 4 samples.

Results

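The 10 genes described here encode glutathione peroxidases (Gpx1, Gpx3, Gpx4, Gpx7 and Gpx8), a glutaredoxin (Glrx), catalase (Cat) and the superoxide dismutases (Sod1, Sod2 and Sod3). They were chosen by gene symbol from 49739 genes and transcripts named on the array, and each was read by 1 probe. The rule held no measured value, but earlier results of these data were known when it was set. The cells were C3H10T1/2, a mouse fibroblast line that can be transformed in culture by chemicals, and their RNA was read on 4 one-colour microarrays. Transformed cells given diethyl maleate (DEM) at 0.25 mM (2 arrays) were set against transformed cells without DEM (untreated; 2 arrays). Cells of both groups had been transformed beforehand with the carcinogen MCA at 2.5 µg/ml for 2 days and then the phorbol ester TPA at 100 ng/ml for 2 weeks. The sources used here do not state how long DEM was applied.

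Superoxide dismutases turn superoxide into hydrogen peroxide, which catalase and the glutathione peroxidases then remove. Gpx1, Gpx3 and Gpx4 use reduced glutathione as an electron donor, Gpx7 and Gpx8 of the endoplasmic reticulum use it poorly, and glutaredoxins use it to release glutathione from protein thiols. DEM is an electrophile that binds glutathione and lowers its level in cells, while catalase and the dismutases work without glutathione.

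Signal reached a 75th percentile of 449.9 and 412 on the DEM arrays and of 701 and 747 on the untreated arrays, and 47.3% to 52.1% of probe spots lay well above background. A level below is log2 signal after subtraction of its array's 75th percentile, and a log2 change is the DEM mean minus the untreated mean. Levels of different genes come from different probes and are not set against each other. The arrays correlated at 0.984 within the DEM pair and 0.987 within the untreated pair, against 0.964 to 0.968 between groups. All 4 arrays were on 1 slide, with the DEM arrays in row 2 and the untreated arrays in row 1, so position and group cannot be told apart. Nothing in the labels ties the arrays of a group to separate cultures, and p-values therefore measure the spread between the samples at hand alone, which may be technical. All 10 fibroblast markers listed were measured. Of these, 6 were lower with DEM (among them Col3a1, Pdgfra and Dcn), while Col1a1, Vim, Thy1 and S100a4 did not pass. Among all genes tested, 11.8% were lower. Lum, 1 of the 6, was well above background on the untreated arrays only. The summed linear level of the 10 markers was 841.3 and 1248 on the DEM arrays and 1550 and 1610 on the untreated arrays. A sum of this kind follows its brightest probes, here among them S100a4 (levels 8.12 and 9.19 with DEM, 9.18 and 9.21 untreated).

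Of the 10 genes, 8 were well above background on at least 2 arrays and were tested. With DEM, Cat (3.40-fold) and Sod1 (2.54-fold) were higher. Glrx (2.43-fold) was lower, as was Sod3 (at least 8.10-fold with the reported background correction, a smaller fold with normexp). Gpx1, Gpx4, Gpx8 and Sod2 did not pass an adjusted p of 0.05 (limma with Benjamini-Hochberg adjustment over all genes). The other two, Gpx3 and Gpx7, were not well above background on any array. Among all 24658 genes tested, 27.2% passed, 15.5% higher and 11.8% lower. The median log2 change of the 8 genes was 0.01, with Sod3 at its fitted value or at its bound, and that of all genes was 0.16 (quartiles -0.34 and 0.57). The 2 groups did not overlap for 6 of the 8 genes, against 68.5% of all genes. In these bulk samples, fewer cells of a type and less RNA per cell cannot be told apart.

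**Figure D1:**
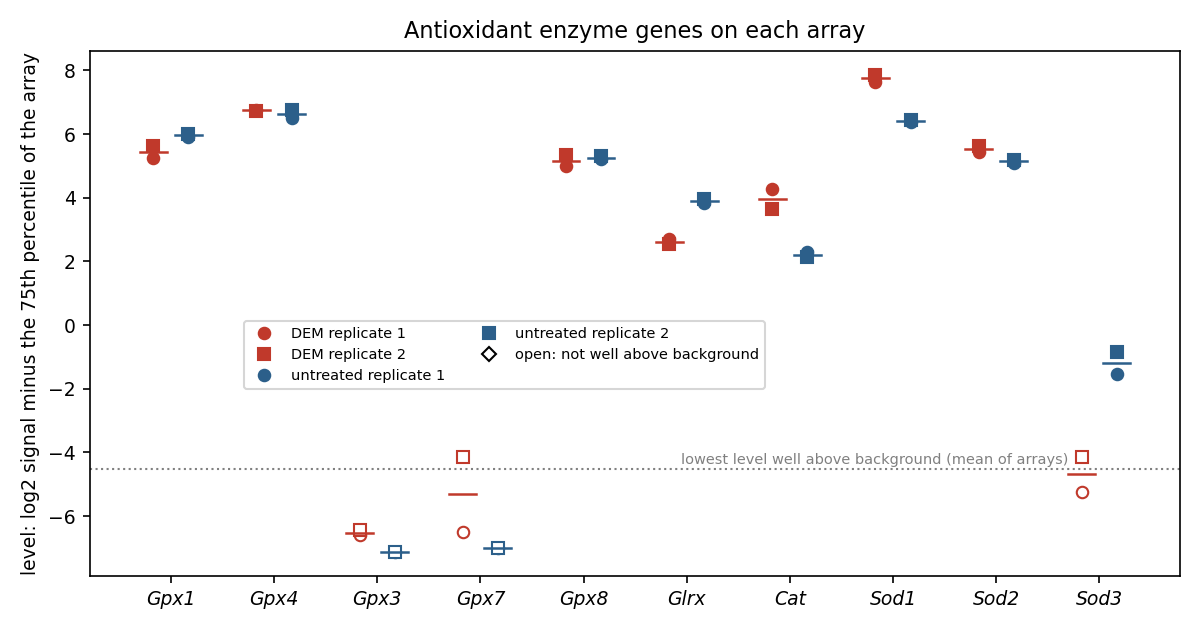
Level of each gene on each array (vertical axis, log2 signal less the array's 75th percentile), with DEM arrays in red left of untreated arrays in blue and a bar at each mean. Open symbols were not well above background, and the dotted line marks the mean over arrays of the lowest level that was. Cat and Sod1 sit higher with DEM and Glrx and Sod3 lower, while both groups of Gpx4 and Gpx8 overlap.

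Gpx1, the abundant selenium-containing peroxidase of cytosol and mitochondria, had levels of 5.24 and 5.62 with DEM, against 5.92 and 5.99 in untreated cells. Both DEM arrays lay below both untreated arrays. The log2 change was -0.52 ± 0.18 (SE, n = 2 arrays per group; 95% interval -0.96 to -0.08; adjusted p = 0.0787 by limma), which did not pass. It passed under 5 of 15 alternative settings, including quantile normalization (-0.79, adjusted p = 0.0206) and the fit without DEM replicate 2 (-0.72, adjusted p = 0.0171).

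Gpx4 reduces lipid hydroperoxides within membranes and is best known as a brake on ferroptosis, a cell death driven by lipid peroxides. Its levels were 6.76 and 6.73 with DEM, against 6.50 and 6.76 in untreated cells, and the groups overlapped. The log2 change was 0.12 ± 0.15, with a 95% interval of -0.26 to 0.49 and an adjusted p of 0.604 by limma. Before centring, its signals were 48713 and 43700 with DEM, against 63399 and 80758 in untreated cells. The sign of the estimate turned negative under 4 alternatives, down to -0.20 with cyclic loess.

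Gpx8, a membrane peroxidase of the endoplasmic reticulum with a cysteine in place of selenocysteine, had levels of 4.98 and 5.35 with DEM, against 5.22 and 5.29 in untreated cells. The groups overlapped, although before centring the signals were lower with DEM (14219 and 16766) than in untreated cells (26169 and 29328). The log2 change was -0.09 ± 0.18 (95% interval -0.53 to 0.34; adjusted p = 0.721 by limma). Without DEM replicate 1 the estimate was 0.09.

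The secreted plasma peroxidase Gpx3 had signals of 4.65 and 4.75 with DEM, against 5.04 and 5.35 in untreated cells. Gpx7, a peroxidase of the endoplasmic reticulum, had 4.97 and 23.5 with DEM, against 5.47 and 5.78 in untreated cells. None of these spots was well above background, so neither gene has a fold change here. Each gene has only the 1 probe.

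The probes of Gpx1, Gpx4 and Sod3 are shown because these genes cover a change that did not pass, an overlap and the lowest fitted change among the 10. They are the 60-base array probes of the chromosome 9, 10 and 5 genes.
Gpx1 probe: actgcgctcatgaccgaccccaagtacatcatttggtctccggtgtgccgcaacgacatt
Gpx4 probe: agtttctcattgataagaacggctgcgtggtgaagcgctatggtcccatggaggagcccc
Sod3 probe: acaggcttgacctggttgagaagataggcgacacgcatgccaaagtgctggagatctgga
All 3 have no stop codon in at least 1 forward reading frame, and no other probe on the array has the same sequence.

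Cat encodes catalase, the peroxisomal enzyme that breaks hydrogen peroxide down without glutathione. Its levels were 4.29 and 3.64 with DEM, against 2.28 and 2.12 in untreated cells. Both DEM arrays lay above both untreated arrays, and the DEM pair was the more spread (SD 0.46 with DEM and 0.11 in untreated cells, n = 2 each). Cat rose by 1.76 ± 0.25 on the log2 scale (95% interval 1.15 to 2.37; adjusted p = 0.00616 by limma). The call was lost without untreated replicate 2 (1.69) and with spike-in scaling (1.61, adjusted p = 0.27 by limma). It held where spike-in scaling was combined with the replicate number as a block, a setting added after the results were seen.

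Sod1, the copper and zinc dismutase of the cytosol, had levels of 7.65 and 7.87 with DEM, against 6.36 and 6.46 in untreated cells. The groups did not overlap, nor did the signals before centring (90226 and 96297 with DEM, 57761 and 65616 in untreated cells). Sod1 rose by 1.35 ± 0.15 (95% interval 0.99 to 1.71, adjusted p = 0.00313 by limma). Among 15 alternatives the call was lost only with spike-in scaling (1.19, adjusted p = 0.489 by limma). It held with the block added to that scaling, a setting chosen after the results were seen. A predicted transcript named as similar to Sod1, LOC545845, was picked out after its values were seen. Its probe had levels of 6.11 and 6.36 with DEM, against 4.78 and 5.03 in untreated cells (log2 change 1.33 ± 0.17, adjusted p = 0.00497 by limma over all probes). Whether that probe also pairs with Sod1 RNA was not tested.

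Sod2, the manganese dismutase of mitochondria, had levels of 5.45 and 5.64 with DEM, against 5.09 and 5.18 in untreated cells. Both DEM arrays lay above both untreated arrays after centring only: the signals before it were 19651 and 20519 with DEM, against 23946 and 27181 in untreated cells. The log2 change of 0.40 ± 0.15 (95% interval 0.03 to 0.78) did not pass (adjusted p = 0.103 by limma), and it passed under none of the 15 alternatives.

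Sod3 encodes the secreted copper and zinc dismutase of the extracellular matrix. Its signals were 12 and 23.2 with DEM, where neither spot was well above background, against 241.7 and 411.8 in untreated cells, where both were. The DEM arrays therefore give only an upper limit. With the reported background correction, Sod3 was at least 8.10-fold lower with DEM (adjusted p = 0.00467 by limma). Sod3 passed the filter on dim probes only through the untreated arrays, so a gene of this kind had to differ to be tested. Its fitted log2 change was -3.49 and its bound 3.02 on that scale. Normexp background correction (offset 50) gave -1.52, a smaller change than the bound. Leaving out DEM replicate 1 gave -2.95, also smaller than the bound.

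Glrx encodes glutaredoxin, which reduces mixed disulfides between proteins and glutathione. Its levels were 2.70 and 2.53 with DEM, against 3.84 and 3.95 in untreated cells. The groups did not overlap, and each pair was close (mean 2.61 ± 0.11 with DEM and 3.89 ± 0.08 in untreated cells, SD, n = 2 each). Glrx fell by 1.28 ± 0.17 (95% interval -1.69 to -0.87; adjusted p = 0.00506 by limma). The call was lost without untreated replicate 2 (-1.22) and with spike-in scaling (-1.43, adjusted p = 0.393 by limma). It held with the block added to that scaling, a setting chosen after the results were seen.

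**Figure D2:**
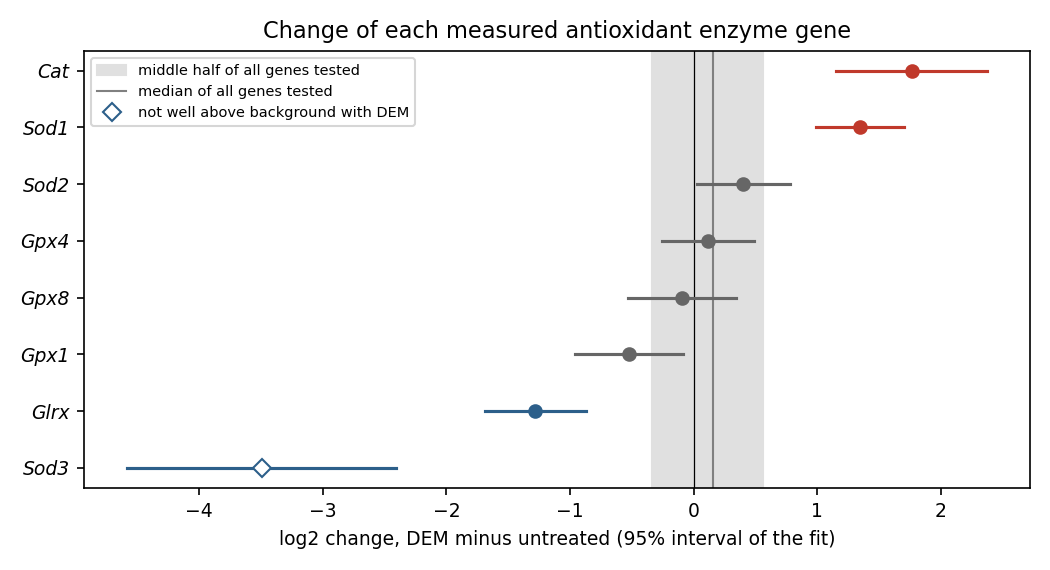
Log2 change of each tested gene, DEM minus untreated (points, with 95% intervals), beside the quartiles of all 24658 genes. Cat at 1.76 and Sod1 at 1.35 lie above the quartile range and Glrx at -1.28 below it. The diamond for Sod3 is a fitted value that stands for a bound only.

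The 250 bases before the annotated starts of Sod1, Cat and Glrx are given because these are the 3 genes that passed with a measured level in both groups. They come from RefSeq (GRCm38.p6), which holds such windows for 9 of the 10 genes, 13 windows in all. The motif searched was TGACNNNGC on either strand, the core of the antioxidant response element, to which the electrophile-responsive factor NRF2 binds. The capitals in Sod1 mark the fixed letters of the match.
Sod1 (chr16:90220512-90220761, plus strand): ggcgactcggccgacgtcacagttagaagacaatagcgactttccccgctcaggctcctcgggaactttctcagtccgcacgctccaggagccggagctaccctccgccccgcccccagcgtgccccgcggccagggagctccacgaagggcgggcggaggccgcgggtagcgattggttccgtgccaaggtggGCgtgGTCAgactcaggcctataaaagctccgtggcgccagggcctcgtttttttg
Cat (chr2:103485154-103485403, minus strand): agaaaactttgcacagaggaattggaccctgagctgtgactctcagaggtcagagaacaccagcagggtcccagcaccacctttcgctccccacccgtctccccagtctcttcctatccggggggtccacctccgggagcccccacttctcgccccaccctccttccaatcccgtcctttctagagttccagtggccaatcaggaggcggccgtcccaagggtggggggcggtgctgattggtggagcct
Glrx (chr13:75839635-75839884, plus strand): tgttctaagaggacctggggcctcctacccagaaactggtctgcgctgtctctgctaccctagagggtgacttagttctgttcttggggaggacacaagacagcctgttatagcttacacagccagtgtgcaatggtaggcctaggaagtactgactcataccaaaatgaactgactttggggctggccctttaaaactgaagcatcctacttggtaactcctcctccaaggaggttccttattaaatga
Of the 13 windows, 1 held the motif, that of Sod1, at bases 56 to 48 before the start on the opposite strand. The motif occurs in 10.2% of 32851 windows of the same length. The Sod1 window had 66.4% G and C with 26 CpG, Cat 62% with 9 and Glrx 48.8% with 1, against medians of 52.4% and 6 over all windows. A match is letters only, and binding was not measured.

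The counts in the related lists below stand beside 15.5% higher and 11.8% lower among all genes tested. A share near those is not read as a result about a list. The other members of the peroxidase and glutaredoxin families did not pass. Of 6 listed, 4 were measured, with a median log2 change of 0.22. Glrx3 (0.36 ± 0.15), Glrx5 (0.08 ± 0.17) and Glrx2 (0.01 ± 0.16), which serve in iron-sulfur cluster handling or in mitochondria, had adjusted p-values of 0.118, 0.744 and 0.958 by limma. Gpx2, the intestinal peroxidase, was well above background on 2 arrays (0.44 ± 0.39, adjusted p = 0.433), and Gpx5 and Gpx6 were not measured.

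Of 8 measured genes that supply or recycle glutathione, 6 were higher and 0 lower, with a median log2 change of 2.52, and 5 were higher with either untreated array left out. Gsr, the reductase that regenerates reduced glutathione, had levels of 3.92 and 3.94 with DEM, against 1.37 and 1.71 in untreated cells (log2 change 2.40 ± 0.19, adjusted p = 0.00135 by limma). Its 3 probes gave 2.40, 2.73 and 2.40. The cystine transporter subunit Slc7a11 (7.12) and the glutamate-cysteine ligase subunits Gclc (3.61) and Gclm (3.56) also rose. The untreated levels of Slc7a11 (-4.12 and -4.67) lay near the lowest levels well above background on those arrays (-4.82 and -4.80). Its log2 change ran from 5.31 to 7.40 over the 15 alternatives.

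Peroxides are also removed by peroxiredoxins, which draw on thioredoxin. Of 13 measured genes of that route, 5 rose and 2 fell (median 0.39). Srxn1, which repairs overoxidised peroxiredoxins, rose by 4.75 ± 0.24 on the log2 scale, Prdx1 by 2.18 ± 0.18 and the thioredoxin reductase Txnrd1 by 2.36 ± 0.26. Txnip, which binds and inhibits thioredoxin, fell by 1.83 ± 0.28 and the mitochondrial reductase Txnrd2 by 0.90 ± 0.24. With either untreated array left out, 4 were higher and 1 lower.

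Gpx1, Gpx3 and Gpx4 carry selenocysteine, an amino acid inserted by dedicated factors. The 9 genes listed for its synthesis and insertion, called synthesis genes below, include the uptake receptor Lrp8. Of the 9, 3 were higher and 0 lower (median 0.18), against 15.5% higher and 11.8% lower among all genes. Trnau1ap, which binds the selenocysteine tRNA, rose by 1.25 ± 0.16 and Sephs2, which makes selenophosphate, by 0.79 ± 0.17, with adjusted p-values of 0.00446 and 0.0223 by limma. Lrp8, a receptor that takes up selenoprotein P, was at least 15.1-fold higher with DEM, since neither untreated spot was well above background. Normexp background correction gave a 5.08-fold difference, below that bound. Lrp8 passed the filter on dim probes only through the DEM arrays, so it had to differ to be tested. With well above background required on 4 arrays, 2 of 8 synthesis genes were higher. Among 16 other selenoproteins, Txnrd1 and Sephs2 rose, Selenop (log2 change -2.04 ± 0.26), Selenom (-1.05 ± 0.22) and Txnrd2 (-0.90 ± 0.24) fell, and 11 did not pass. Sephs2 is also counted among the synthesis genes, and Txnrd1, Txnrd2 and Txnrd3 in the thioredoxin route, so these counts overlap. Without untreated replicate 2, 1 synthesis gene was higher, and 1 of the other selenoproteins was higher and 1 lower.

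Sod1 and Sod3 need copper. Ccs, the chaperone that loads copper into SOD1, had levels of 3.96 and 4.04 with DEM, against 3.93 and 4.14 in untreated cells (log2 change -0.03 ± 0.16, adjusted p = 0.908 by limma), and the groups overlapped. Of 8 copper delivery genes, the importer Slc31a1 (0.77 ± 0.16) and the mitochondrial chaperone Cox17 (0.67 ± 0.17) rose, and Slc31a2 fell by 0.71 ± 0.18, with a median of -0.05. Their adjusted p-values were 0.0208, 0.036 and 0.0359 by limma, and 0 of the 8 passed with either untreated array left out. With quantile normalization Cox17 did not pass (0.38, adjusted p = 0.0978 by limma).

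Catalase is imported into peroxisomes. Of 21 measured genes for peroxisome assembly and oxidases, 0 rose and 3 fell, with a median of 0.14, while 27.2% of all genes passed. Pex19, a chaperone for peroxisomal membrane proteins, fell by 0.84 ± 0.19 and Pex7, an import receptor, by 0.75 ± 0.20. Another import receptor, Pex5, did not pass (0.38 ± 0.20, adjusted p = 0.196 by limma). The beta-oxidation enzyme Ehhadh was at least 1.98-fold lower, since neither DEM spot was well above background. Ehhadh passed the filter on dim probes only through the untreated arrays, so it had to differ to be tested. With normexp background correction its log2 change was -0.26 and did not pass (adjusted p = 0.146 by limma). With well above background required on 4 arrays, 2 of 20 genes of this list were lower and 0 higher. With either untreated array left out, 0 of the 21 passed.

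Among genes that make or limit lipid peroxides, 7 were measured besides Gpx4, and 27.2% of all genes passed. Por, the reductase that passes electrons to cytochromes P450, rose by 1.23 ± 0.15 and Gch1, which starts tetrahydrobiopterin synthesis, by 1.73 ± 0.21 (adjusted p = 0.00409 and 0.00414 by limma), 0 fell and the median was 0.08. With spike-in scaling 0 passed. Among sources of superoxide and peroxide, 9 of 16 were not well above background, and of 7 measured only the NADPH oxidase organiser Noxo1 passed; it fell by 1.34 ± 0.22 on the log2 scale (list median -0.57) and 0 passed with either untreated array left out.

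Of 12 measured regulators of antioxidant genes, 3 were higher and 1 lower (median 0.21), while 27.2% of all genes passed. Keap1, which targets NRF2 for degradation, rose by 0.88 ± 0.15, the forkhead factor Foxo4 by 2.01 ± 0.30 and the NF-kappaB subunit Rela by 0.65 ± 0.17, while the coactivator Ppargc1b fell by 2.39 ± 0.30. With normexp the log2 changes of Foxo4 and Ppargc1b were 1.21 and -1.09, and with cyclic loess Rela did not pass (0.43, adjusted p = 0.0976 by limma). Nfe2l2, which encodes NRF2, had levels of 5.65 and 5.20 with DEM, against 4.91 and 4.53 in untreated cells (log2 change 0.71, adjusted p = 0.0636 by limma), and did not pass. Without untreated replicate 2, 0 of the 12 passed.

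**Figure D3:**
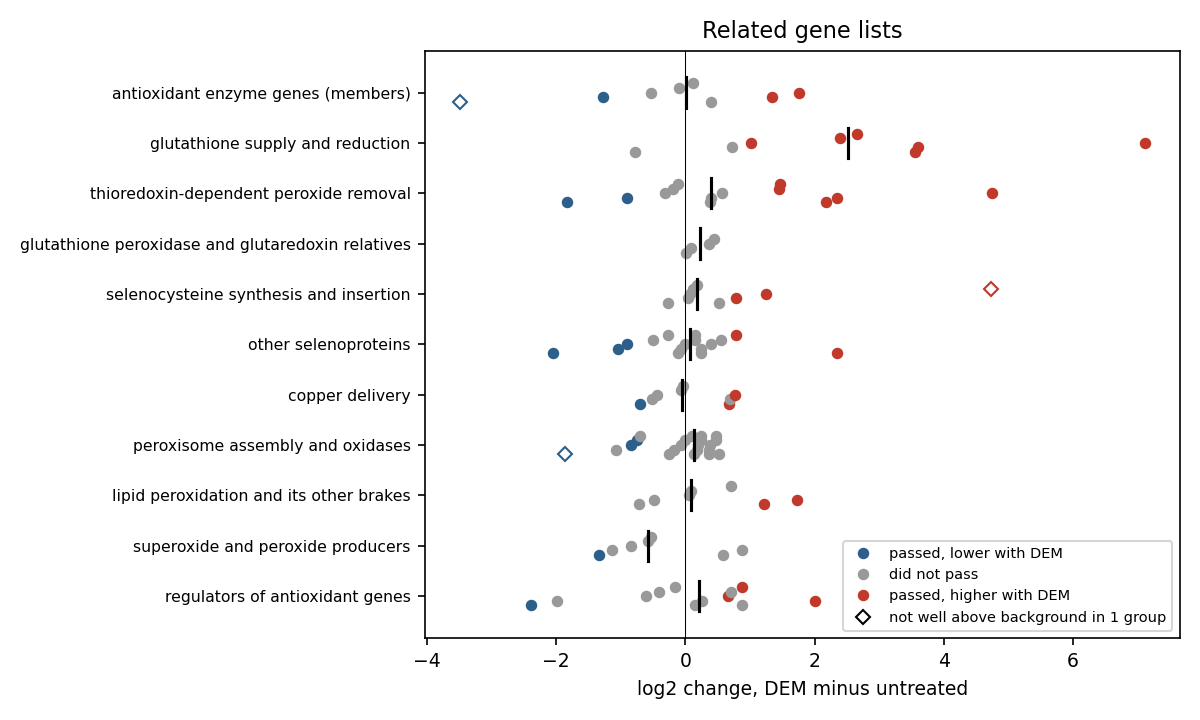
Log2 change, DEM minus untreated (horizontal axis), of each measured gene in the 10 antioxidant genes and 10 related lists, coloured by call, with a bar at each median. The glutathione supply list has a median of 2.52, and the medians of the other lists lie between -0.57 and 0.39. Diamonds were not well above background in 1 group.

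Markers of other cell types gave the following, beside 15.5% higher and 11.8% lower among all genes tested. The macrophage markers Ptprc, Adgre1, Csf1r and Itgam, the endothelial markers Pecam1, Cdh5, Kdr and Vwf and the epithelial markers Epcam, Cdh1 and Krt18 were not well above background. Of 4 skeletal muscle markers measured, 4 were lower, with a summed linear level of 2.85 and 3.33 on the DEM arrays and 36.2 and 44.8 on the untreated arrays, while Ckm, Myh3, Myf5, Myog and Myod1 were below that mark. Of 3 smooth muscle markers measured, 2 were lower (summed level 30.6 and 33.3 with DEM, 287.5 and 327.3 untreated), and of 6 osteoblast and chondrocyte markers 4 were lower. Of the few macrophage (2 of 6), endothelial (1 of 5), epithelial (3 of 6) and adipocyte (4 of 6) markers measured, 1, 1, 0 and 1 were lower and 0 were higher. Tek (endothelial), Lum (fibroblast), Tnnt1 (skeletal muscle), Alpl and Bglap (osteoblast) were well above background on the untreated arrays only. Such genes had to differ to be tested. With well above background required on 4 arrays, 5 of 9 fibroblast, 3 of 3 skeletal muscle and 2 of 4 osteoblast and chondrocyte markers were lower. No endothelial marker was then measured. The part that the markers lower with DEM, fibroblast markers included, have in the calls above was not tested.

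**Figure D4:**
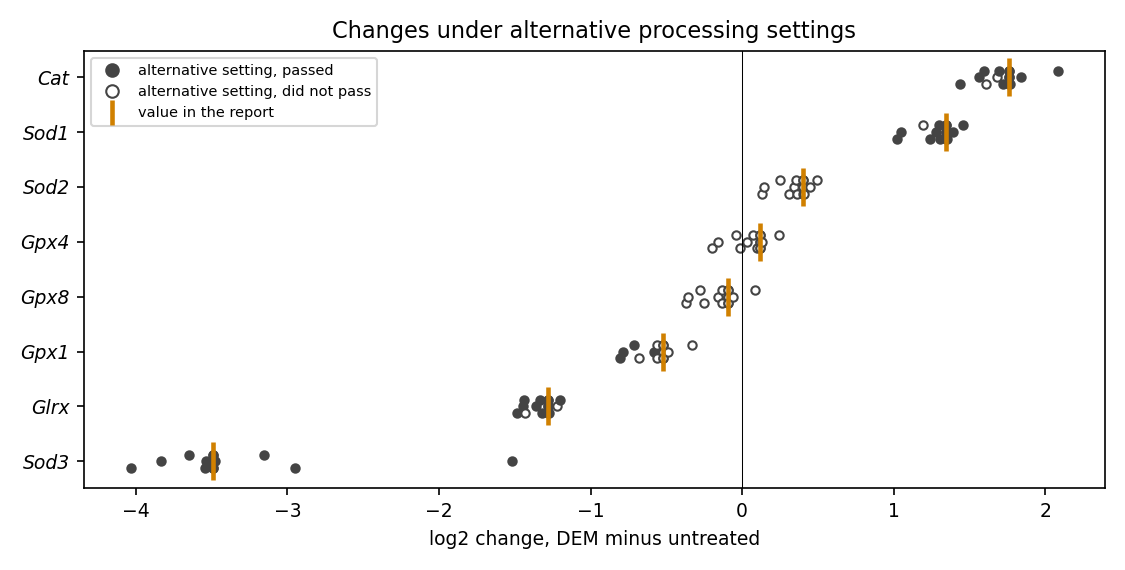
Log2 change, DEM minus untreated, of each gene under the reported setting (orange bar) and 15 alternatives (circles, filled where the gene passed; Sod3 was not tested in 1). Cat stays between 1.44 and 2.09, Sod1 between 1.02 and 1.46 and Glrx between -1.48 and -1.20, while Gpx4 lies on both sides of 0.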

How the data were processed

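RNA was hybridised to Agilent one-colour arrays, 1 sample per array; groups follow the treatment label. The deposited spot intensity values came from Feature Extraction 10.7.3.1 (protocol GE1_107_Sep09), per the file headers, which had subtracted background and detrended them. The authors' deposited log2 table lay within 0.01 of log2 signal minus a constant for at least 99.98% of probes (column medians -4.30 and -4.36 for DEM, -4.39 and -4.35 for untreated) and was an alternative. Control and outlier spots were left out, log2 signal was centred on each array's 75th percentile, spots of a probe were averaged (61177 probes), and probes had to be well above background on 2 or more of the 4 arrays. The brightest kept probe stood for a gene. Symbols were updated through RefSeq.

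Groups were compared two-sided with limma 3.58.1 in R 4.3.3 (lmFit, eBayes with trend, 2 residual and 4.03 prior degrees of freedom), with Benjamini-Hochberg adjustment over 24658 genes and a threshold of 0.05. The code was tested on simulated data. Figures used matplotlib 3.10.9. A gene not well above background in 1 group has a bound: the bright mean over the mean, per array, of the higher of its own level and the lowest level well above background. The bound holds for all 4 arrays and the reported background correction only. Normexp gave smaller changes than the bound for Sod3, Lrp8 and Ehhadh. The number of arrays limits precision. Alternatives were background correction, scaling, filters, probe choice, variance trend, the replicate block and each array left out.

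The 10 genes and all lists were chosen with earlier results of these data known. All 10 genes are named; from each related list up to 3 genes per direction with the smallest p among those that passed are named, plus Gpx2, Glrx2, Glrx3, Glrx5, Gsr and Ccs. Nfe2l2, Pex5 and the marker genes named with their calls were picked after their values were seen.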

Additional observations from a re-analysis of the deposited data

How the results depend on the processing

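Sod1 and Cat stayed higher and Glrx and Sod3 lower in sign under every alternative that gave a value. Over all genes 3812 were higher and 2900 lower (56.8% higher). Higher genes numbered 6470 with normexp (70.0% higher), 2529 with cyclic loess (40.8%), 355 with spike-in scaling (29.2%, 859 lower) and 17297 with no filter on dim probes (84.7%), and quantile normalization gave 46.9%. The median change of all genes was 0.01 with cyclic loess, 0.00 with spike-in scaling and 0.47 with no filter, against 0.16. With no filter 20833 probes were higher, against 4638 with it. Among the 10 genes, spike-in scaling left 0 higher and 1 lower, and the filter for 4 arrays left 1 lower because Sod3 was not tested. With no filter 3 were higher, Gpx3 being added although it was not well above background on any array. Leaving out 1 array gave 644 to 4488 genes higher and 802 to 3814 lower, with 1 to 2 of the 10 genes higher and 1 to 3 lower; the lowest counts came without untreated replicate 2 (44.5% higher). A group of 1 array is assumed to vary like the other pair. Gpx4 turned to -0.16 (quantile), -0.20 (cyclic loess), -0.040 (spike-in), and leaving out 1 array gave -0.013 to 0.24 for Gpx4 and -0.28 to 0.087 for Gpx8. The cause was not tested.

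Same-numbered arrays deviated from their group means with a correlation of 0.0844, and the labels give no shared origin, so they were not treated as pairs. Relative to spike-in RNA, the 75th percentile nonetheless differed with the number, at log2 values of -2.78 and -3.70 on DEM arrays 1 and 2 and -2.76 and -3.41 on untreated arrays 1 and 2. With the replicate block, 4472 genes were higher and 3378 lower, and 2 of the 10 genes were higher and 3 lower, Gpx1 being added (adjusted p = 0.0373 by limma). Spike-in scaling with the block, chosen after seeing the data, gave 3203 genes higher and 4250 lower (43.0% higher). Cat and Sod1 were among the higher and Glrx, Sod3 and Gpx1 among the lower, and Gpx4 was -0.040. The part that the difference with the number has in the calls lost under spike-in scaling alone was not tested. With 2 arrays per group, signal over background leaves Gpx3 and Gpx7 without a measured level and Sod3 with a bound.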
